A study of Saccharomyces cerevisiae with 8 samples.

Results

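The head of the yeast small ribosomal subunit is described here through nucleotides 1141 to 1600 of 18S rRNA, about the 3′ major domain. These 460 nucleotides were chosen by position alone, from 5475 nucleotides of 4 rRNAs in the deposited table. They comprise 112 A, 96 C, 129 G and 123 U. In the annotated gene copy RDN18-1 they lie on the minus strand at chrXII:456133-456592 (assembly R64, which sacCer3 also denotes), inside the 18S rRNA gene at 455933 to 457732. The rDNA is repeated, and the rates do not separate its copies.

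The head is a lobe that is joined to the body of the subunit by a narrow neck and swivels as tRNAs move through the ribosome. Its inner face holds the mRNA and the anticodon ends of the tRNAs, and its back carries ribosomal proteins. Cycloheximide (CHX), which stops elongation, is known to bind the large subunit, in the tRNA exit site, and not the head. Agelastatin A (AglA) is an alkaloid of marine sponges that inhibits translation.

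Ribosomes purified from Saccharomyces cerevisiae were given a drug in vitro and then dimethyl sulfate (DMS), which methylates the base-pairing edge of A and C where nothing covers it. The reverse transcriptase reads the methylated base as a mismatch, so the mutation rate gives how often reads mismatched at that nucleotide. The 8 libraries were 80S ribosomes without DMS, and 80S ribosomes with 90 mM DMS for 8 min and either no addition, the solvent dimethyl sulfoxide (DMSO), AglA at 0.5 or 1.0 mM, or CHX at 10, 50 or 1000 µM. All ribosomes were probed as isolated particles in vitro, the strain is not given in the labels used here, and the mRNA and tRNA they carried are not stated. Each condition is 1 library, so no difference has a replicate check and no p-value is given. Read depth is not known, so rates carry no counting interval.

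Sequences around the bases described below are shown as the letters of the deposited table, 5′ to 3′ along the rRNA, with T for U. Capitals mark reactive bases, meaning A and C that averaged 0.5% or more across the 7 DMS libraries, and the base that names each line. The first holds the tRNA-facing loop with its modified base, the second the most reactive stretch, the third the A-site base and an acetylated cytidine, the fourth a lone strong adenosine, the fifth the second reactive cluster and the last a methylated guanosine.
U1191: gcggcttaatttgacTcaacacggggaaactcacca
A1219: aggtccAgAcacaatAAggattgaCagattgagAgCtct
C1274: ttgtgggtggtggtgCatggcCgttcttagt
A1360: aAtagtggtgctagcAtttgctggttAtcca
C1490: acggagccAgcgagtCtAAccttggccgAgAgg
G1575: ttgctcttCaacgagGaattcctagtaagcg
In the same order these stretches lie on the minus strand of R64 at chrXII:456522-456557, chrXII:456484-456522, chrXII:456444-456474, chrXII:456358-456388, chrXII:456226-456258 and chrXII:456143-456173.

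DMS raised the mutation rate at least 10-fold at some adenosines of the head and at few of its cytidines, and most rates stayed low. Without DMS the 112 adenosines had a median of 0.0365%, which was 0.208% in the no-addition library, and 32 (28.6%) rose at least 10-fold. For the 96 cytidines the medians were 0.0560% and 0.107%, and 8 (8.33%) were at least 10-fold higher. Over all 4 rRNAs 31.3% of adenosines and 10.8% of cytidines were at least 10-fold higher. Of the 129 guanosines 2 passed that bound (1.55%, against 1.27% over all 4 rRNAs). Of the 123 uridines 0 did, against 0.896%. With 0.001 (0.1 percentage points) added to each rate, the median log2 ratio of the no-addition library to the library without DMS was 1.15 for A and 0.23 for C, sizes that depend on the constant added.

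Of the 208 A and C nucleotides of the head, 34 (16.3%) were reactive, 25 A and 9 C. The share was 20.3% over the whole table, 20.9% in the first 610 nucleotides of 18S rRNA, 29.9% between those and the head, 35.4% in the 3′ end after the head and 18.7% in 25S rRNA. Nucleotides are not replicates, so these shares were not tested against each other. The median rate of the reactive head nucleotides was 1.11% with no addition, against 1.74% for the 514 reactive nucleotides of the table. A mean rate of at least 5% was reached by 4 of the 34, and at least 2% by 10. Among the 514 reactive nucleotides of all 4 rRNAs, 78 reached 5% and 207 reached 2%. At the other end, 130 of the 208 (62.5%) had a mean under 0.2%, a count that was made for the head only. The bases just inside the bound were A1244 (mean 0.542%), A1483 (0.601%) and C1280 (0.609%), and those just outside were A1400 (0.499%), A1296 (0.482%) and A1147 (0.447%). The nearest reactive base before the head, A1139, had a mean of 61.1%, and the nearest after it, A1631, had 0.795%.

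**Figure D1:**
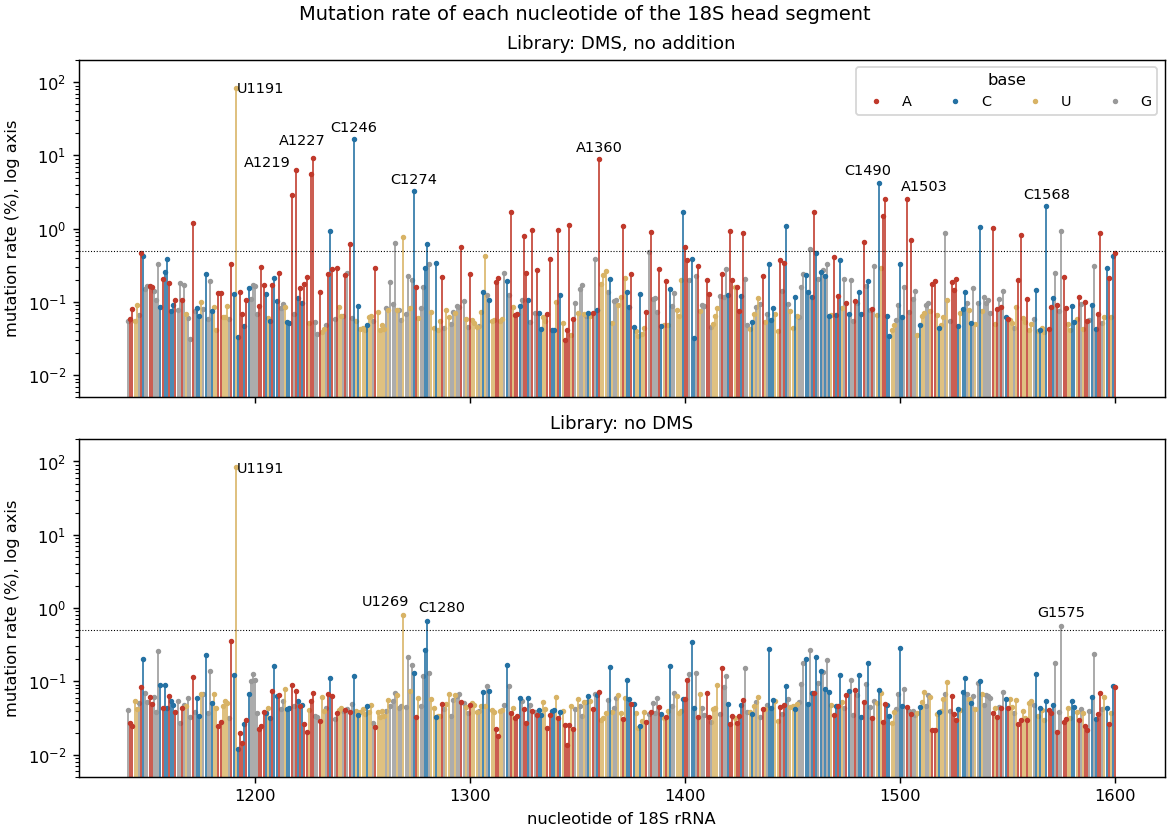
Mutation rate in percent (log axis) of each of the 460 nucleotides by position in 18S rRNA, coloured by base, in the no-addition library with DMS (top) and the library without DMS (bottom), with the dotted line at 0.5%. U1191 stands near 83% in both panels. C1246, A1227, A1360, A1219 and A1226 rise above 5% with DMS and have at most 0.119% without it.

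The most reactive base of the head was C1246. The no-addition library gave 16.8% and DMSO 17.8%. AglA gave 16.1% at 0.5 mM and 16.8% at 1.0 mM, and CHX gave 13.2% at 10 µM, 14.3% at 50 µM and 13.2% at 1000 µM, against 0.119% in the library without DMS. Drug rates below are listed from the lowest dose to the highest. The CHX rates were the lowest of the 7. All 3 CHX libraries also lay below both libraries without drug at 73.5% of the 514 reactive nucleotides of the table. After each library's median was subtracted, the CHX log2 differences of C1246 from no addition were 0.03, -0.05 and -0.08. With no addition the rate of C1246 was 141 times that without DMS. This was the largest such ratio among the 34 reactive bases of the head.

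The strongest adenosines stood in a short stretch before C1246 and at A1360. A1227 gave 9.37% (no addition), 9.07% (DMSO), 8.20% and 8.34% with AglA, 7.30%, 7.72% and 7.20% with CHX, and 0.0685% without DMS. Its neighbour A1226 had 5.52%, 4.68%, 4.61% and 4.92%, 4.57%, 4.93% and 4.8% in the same order, with 0.0543% without DMS. A1226 and A1227 were 1 of 2 pairs of adjacent reactive bases in the head. A1219 gave 6.29% (no addition), 6.44% (DMSO), 5.83% and 5.71% with AglA, 4.83%, 5.22% and 4.68% with CHX, and 0.0734% without DMS. A1217, next but one to it, ran from 2.14% to 2.92% over the DMS libraries. A1360 gave 8.87% (no addition), 7.75% (DMSO), 7.0% and 6.85% with AglA, 6.44%, 8.11% and 7.39% with CHX, and 0.0717% without DMS. Its no-addition rate was the highest and the 10 µM CHX rate the lowest.

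A second cluster lay from C1490 to A1505. C1490 gave 4.26% (no addition), 4.89% (DMSO), 4.59% and 4.90% with AglA, 3.48%, 3.85% and 3.63% with CHX, and 0.0771% without DMS. The DMSO and AglA libraries were the highest at this base and did not overlap the others. A1492 and A1493, the other adjacent pair, had mean rates of 1.51% and 2.33%, and A1503 had 2.38%. A1503 was also the steadiest reactive base, with centred log2 values that spanned 0.083 over the 7 DMS libraries. Of the 15 bases with the highest means, the remaining ones were C1274 (mean 2.98%, described below), C1568 (1.96%), C1399 (1.61%), A1460 (1.49%) and A1319 (1.49%). The means of the 19 reactive bases below them started at 0.542%.

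**Figure D2:**
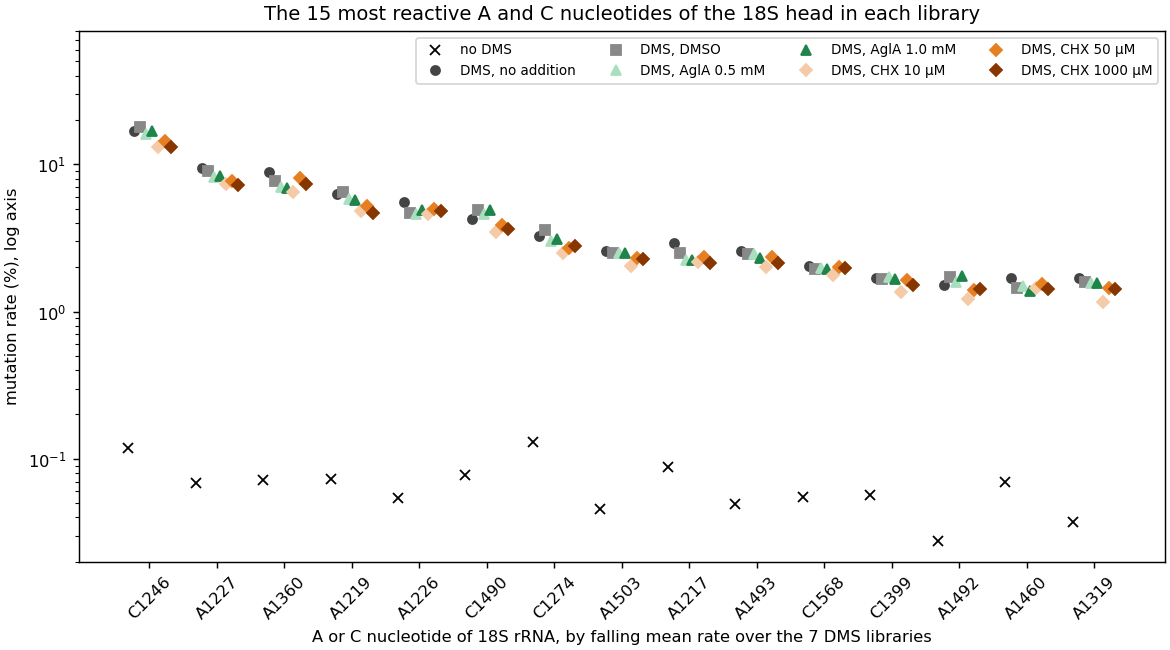
Mutation rate in percent (log axis) of the 15 A and C nucleotides of the head with the highest mean rate, each with 1 point per library for the 8 libraries. At every base the 7 DMS points lie close together, and the point without DMS, between 0.0277% and 0.130%, lies far below them.

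Reactive bases were spread along the head with long quiet stretches between them. In 10 windows of 46 nucleotides, the count of reactive bases ran from 1 (of 22 A and C, nucleotides 1141 to 1186, with A1171 alone) to 6 (of 24, nucleotides 1463 to 1508). The highest share was 4 of 12 (33.3%) in nucleotides 1233 to 1278, which hold C1235, A1244, C1246 and C1274. The longest stretch with no reactive base was nucleotides 1172 to 1216, where 25 A and C had a median mean rate of 0.109%, and it holds the U1191 loop. Nucleotides 1569 to 1592, around G1575, had 14 A and C with a median of 0.0824%.

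**Figure D3:**
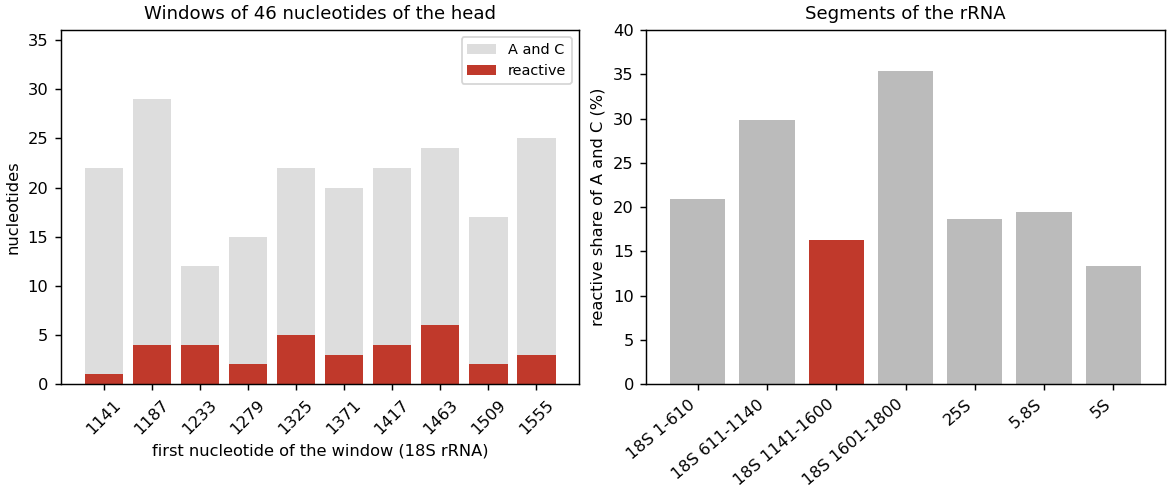
Left, number of A and C nucleotides (grey) and of reactive ones (red) in each window of 46 nucleotides of the head, by the first nucleotide of the window. Right, the reactive share of A and C in percent in segments of 18S rRNA and in 25S, 5.8S and 5S rRNA, with the head (16.3%) in red.

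A search of the table's letters for simple hairpins (at least 5 unbroken A-U, G-C or G-U pairs, at least 3 of them G-C, and a loop of 3 to 12) gave 7 matches. Of the 12 A and C in their loops 6 were reactive, of the 31 in their stems 3, and of the 165 elsewhere 25. Stems held mostly C (22 of 31) and the rest mostly A (96 of 165), and among adenosines alone 2 of 9 in stems (22.2%) and 20 of 96 elsewhere (20.8%) were reactive. The reactive loop bases included A1360 in gctagcATTTgctggt and C1399 in ctatcggttTCAagccgatgg, where capitals mark the loop. They also included A1556 in agagcaTTGTAATTATtgctct. These are matches of letters and not measured pairs. One match holds C1274, whose known helix pairs distant strands, and without it the counts were 5 of 10 in loops and 2 of 28 in stems.

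Some naturally modified bases had mismatches in the library without DMS. U1191 sits at the tip of helix h31 beside the tRNA in the P site, and is a hypermodified pseudouridine made by the snoRNA snR35, the methyltransferase Emg1 and the aminocarboxypropyl transferase Tsr3. It had 82.8% without DMS, 83.1% with DMS alone, 83.0% (DMSO), 83.1% at both AglA doses, and 81.7%, 80.4% and 81.3% with CHX. The 3 CHX values were the lowest of the 8, from 1 library each, and this order was not tested. C1280, which Kre33 acetylates on the base-pairing edge, had 0.674% without DMS and 0.577% to 0.644% with it. C1280 thus counted among the 34 reactive bases by its level, while its no-addition rate was 0.918 times that without DMS.

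The other listed modifications gave rates under 1% in every library. G1575, which Bud23 methylates on the side away from the base-pairing edge, had 0.574% without DMS and 0.784% to 0.939% with DMS. A1576 next to it had 0.0275% without DMS and 0.130% to 0.221% with DMS, below the bound for a reactive base. U1269, methylated on the ribose, had 0.805% without DMS and 0.743% to 0.978% with it. The ribose-methylated G1271, G1428 and G1572 had 0.218%, 0.154% and 0.180% without DMS, where the median of the 129 guanosines was 0.0505%. The pseudouridines U1181, U1187, U1290 and U1415 had 0.0512% to 0.0892% without DMS, where the median of the 123 uridines was 0.0436%.

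C1274 lies in helix h34 beside the A-site codon, at the place of C1054 of bacterial 16S rRNA. It gave 3.23% (no addition), 3.55% (DMSO), 3.01% and 3.11% with AglA, and 2.49%, 2.71% and 2.79% with CHX, against 0.130% without DMS. After centring on each library's median, it was lower with AglA than with DMSO by a log2 difference of -0.17 and -0.14, and differed from the no-addition library by 0.01, -0.06 and 0.05 with the 3 CHX doses. DMSO against no addition was 0.19 at this base, so after centring the AglA libraries lay between both libraries without drug, while their uncentred rates lay below both. A1427, next to the ribose-methylated G1428, gave 0.882% (no addition), 0.815% (DMSO), 0.836% and 0.868% with AglA, and 0.601%, 0.748% and 0.811% with CHX.

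No reactive base of the head differed by 2-fold with either drug. For each drug library a base was called when its log2 value differed by at least 1, in 1 direction, from each library without drug (DMSO and no addition), after 0.001 was added to the rate and each library's median over the 514 reactive nucleotides was subtracted. In each of the 5 drug libraries 0 of the 34 head bases were called, where 0.195% of the 514 nucleotides were called lower and 0% higher. Between DMSO and no addition 0 of the 34 were called, against 0.389% lower and 0% higher over the table. Between 1.0 mM AglA and 1000 µM CHX 0 of 34 were called, against 0.195% higher and 0.584% lower over the table. At a 1.5-fold bound the counts were also 0 of 34. Over the table that bound called 0.389% higher and 1.56% lower for DMSO, 0% higher and 0.195% or 0.389% lower for the drug libraries, and 0.584% higher and 1.95% lower between the drugs. When all 208 A and C of the head were tested at 2-fold, 0 were called, against 0.0791% lower for DMSO, 0.0395% lower for each drug library, and 0.0395% higher and 0.0791% lower between the drugs over all A and C. At backgrounds this low, fewer than 1 of 34 would be called at the table's own share, so these counts do not set the head apart.

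Over the reactive head bases the libraries lay close together. The highest rate of the 7 DMS libraries was 1.12 to 1.66 times the lowest, with a median of 1.37, before centring. The standard deviation (SD) of the centred log2 ratio over the 34 bases was 0.10 and 0.11 for 0.5 and 1.0 mM AglA against DMSO, and 0.13, 0.10 and 0.12 for 10, 50 and 1000 µM CHX against no addition. With the other library without drug as control, the SDs were larger, 0.16 and 0.17 for AglA against no addition and 0.20, 0.19 and 0.19 for CHX against DMSO. DMSO against no addition, with no drug on either side, had an SD of 0.15, so the order of drug and no-drug spread turned with the control. With a 2% filter the SD for 10 µM CHX against no addition was 0.056, and with 0.01 added in place of 0.001 that for 0.5 mM AglA against DMSO was 0.063. For DMSO against no addition the largest differences were 0.40 (A1325) and -0.28 (A1171). In that comparison the 9 reactive cytidines had a median of 0.14, with 7 above 0, and the 25 adenosines -0.01, against 0.11 and 0.03 for the 133 cytidines and 381 adenosines of the table.

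**Figure D4:**
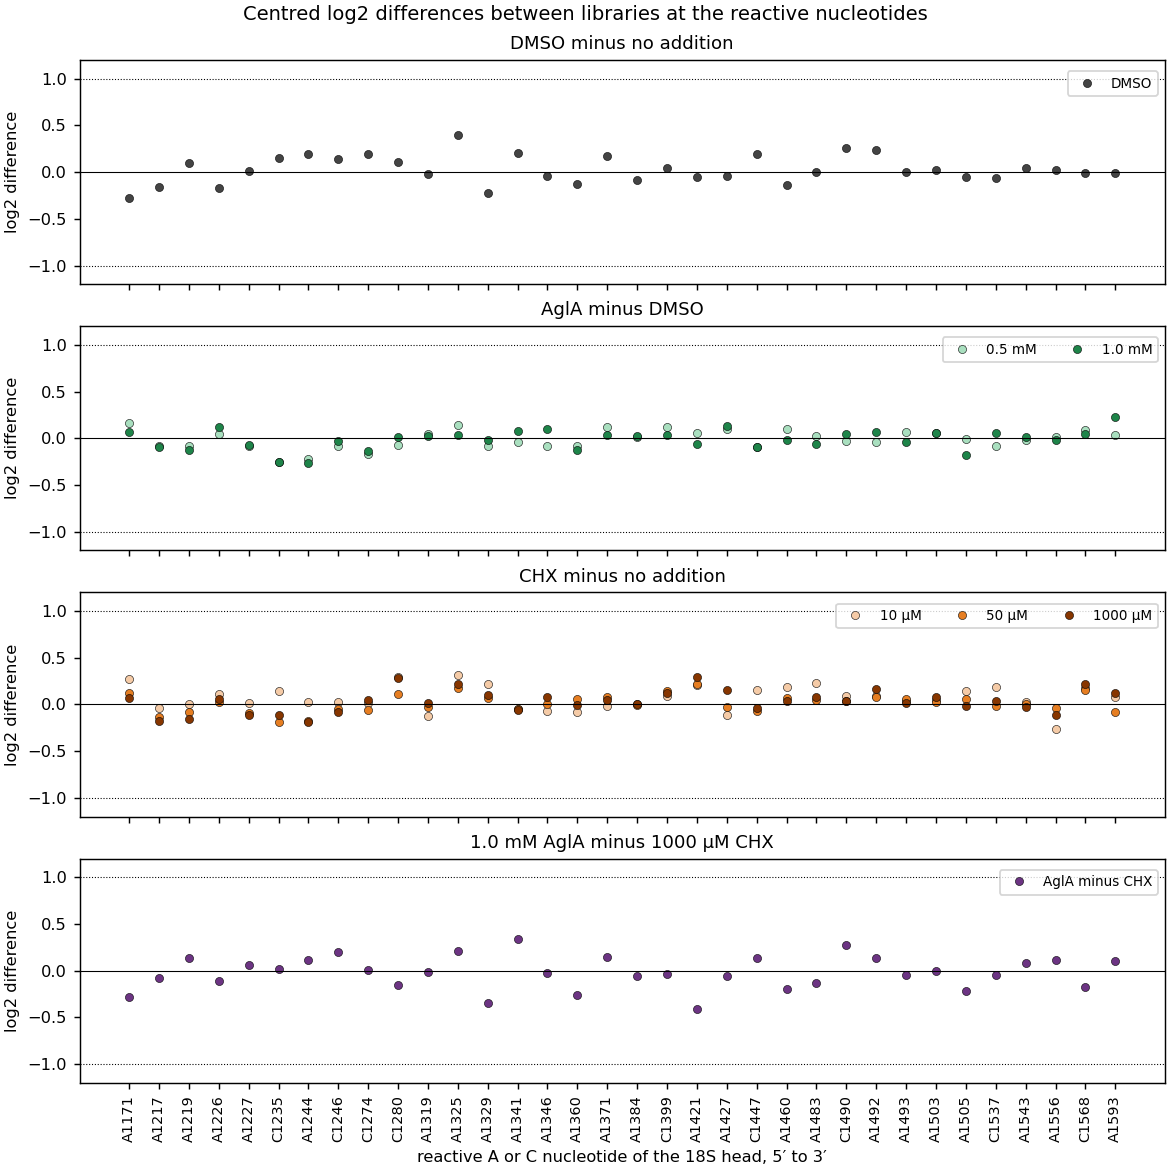
Centred log2 differences at the 34 reactive bases of the head, 5′ to 3′, for DMSO minus no addition, each AglA dose minus DMSO, each CHX dose minus no addition, and 1.0 mM AglA minus 1000 µM CHX. Dotted lines mark the 2-fold bound at 1 and -1, and the largest point in these panels, -0.41 at A1421 in the lowest one, lies well inside it.

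With AglA, the bases farthest below DMSO were C1235 and A1244, chosen for that rank and so given as a description. C1235 gave 0.930% (no addition), 0.996% (DMSO), and 0.779% and 0.789% with AglA, a log2 difference of -0.25 from DMSO at both doses. Against no addition the AglA difference at C1235 was -0.10 at both doses, and DMSO itself was 0.15 above no addition. The CHX rates of C1235, 0.778%, 0.695% and 0.694% before centring, were no higher than those with AglA. A1244 had 0.627% and 0.700% without drug, 0.556% and 0.541% with AglA, and 0.469%, 0.468% and 0.435% with CHX. Before centring these drug rates lay below both libraries without drug. After centring, A1244 differed from no addition by -0.02 and -0.07 with AglA and by 0.02, -0.17 and -0.18 with CHX. DMSO itself was 0.20 above no addition there. Averaged over both AglA doses against DMSO, C1274 (-0.15), A1360 (-0.10) and A1219 (-0.10) were next. On the higher side were A1593 (0.13), A1171 (0.12) and A1427 (0.11). Those 3 values were 0.07, 0.06 and 0.06 without centring and 0.03, 0.01 and 0.01 with no filter. Against no addition A1171 was lower at both AglA doses, by -0.12 and -0.21. With 0.01 added C1235 and A1244 were at -0.12 and -0.10.

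With CHX, A1421 and A1325 were the highest above no addition and A1556 and A1217 the lowest. A1421 gave 0.940% (no addition) and 0.826%, 0.968% and 0.967% with CHX, and a mean centred difference of 0.24. A1325 gave 0.80% (no addition), 1.04% (DMSO) and 0.765%, 0.793% and 0.777% with CHX, also 0.24 after centring, so the uncentred rates were no higher than without CHX. Against DMSO the direction at A1325 turned, to -0.08, -0.23 and -0.18, while A1421 was higher there too, by 0.26, 0.28 and 0.35. C1280, whose rate DMS did not raise, followed with 0.23. A1556 gave 0.823% (no addition), 0.801% (DMSO), 0.768% and 0.759% with AglA, and 0.494%, 0.695% and 0.616% with CHX, a mean centred difference of -0.13. The lowest of these was at the lowest dose, so the values did not fall with dose. A1217 was at -0.12 and A1244 at -0.11. A1217 gave 2.92% (no addition), 2.49% (DMSO) and 2.17%, 2.33% and 2.14% with CHX, and against DMSO its centred differences were 0.12, 0.03 and -0.01, so its direction also depended on the control. Without centring all 5 of the highest bases (A1421, A1325, C1280, C1568 and A1171) lay below no addition, at -0.03, -0.03, -0.04, -0.09 and -0.12, and A1556, A1217 and A1244 were at -0.41, -0.39 and -0.38.

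Centring matters for these directions, because the CHX libraries had lower rates over the whole table. Before centring, the median log2 ratio to no addition over the 34 head bases was -0.31, -0.17 and -0.22 with 10, 50 and 1000 µM CHX, and over the 514 nucleotides -0.33, -0.17 and -0.23. With 0.5 and 1.0 mM AglA it was -0.10 and -0.11 in the head and -0.07 and -0.06 over the 514 nucleotides. Centring removed the difference between library medians, which was larger: -0.38, -0.18 and -0.26 with CHX, and -0.13 and -0.11 with AglA. After centring, the median difference from no addition over the 514 was thus slightly positive. It was 0.05, 0.02 and 0.03 with CHX and 0.05 at both AglA doses.

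Counts of bases whose libraries do not overlap gave shares near those of the table. Both AglA libraries lay above both libraries without drug at 8 of 34 bases (23.5%, against 26.5% over the table) and below at 7 (20.6%, against 18.5%). All 3 CHX libraries lay above at 10 (29.4%, against 22.6%) and below at 2 (5.88%, against 8.56%). Without centring these counts were 0 above and 16 below with AglA, against 8.56% and 42.4% over the table, and 0 above and 26 below with CHX, against 0.584% and 73.5%. Both AglA libraries lay above all 3 CHX libraries at 7 bases (20.6%, against 29.8%) and below at 11 (32.4%, against 28%), and without centring at 19 and 2, against 60.3% and 7.78%.

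At some bases the DMSO and AglA libraries stood together, apart from the no-addition and CHX libraries. This grouping was chosen after the values were seen, and the solvent of either drug is not given in the labels. At 7 of the 34 bases the DMSO and both AglA libraries lay above the no-addition and all 3 CHX libraries (20.6%, against 22.2% over the table), and at 8 below (23.5%, against 16.1%). A1325 was one of the 7, with 1.04% with DMSO and 1.10% and 1.03% with AglA, against 0.80% with no addition and 0.765%, 0.793% and 0.777% with CHX. A1329, 4 bases on, went the other way. It had 0.772% with DMSO and 0.687% and 0.729% with AglA, against 0.960% with no addition and 0.849%, 0.878% and 0.854% with CHX. Without centring 5 bases (A1325, A1341, A1371, C1490 and A1492) stayed above, against 22% over the table, and 2 (A1171 and A1329) below, against 4.47%.

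At the same molar dose, 1.0 mM AglA and 1000 µM CHX differed most at A1421 and A1329 (lower with AglA, by -0.41 and -0.35 on the centred log2 scale) and at A1341 and C1490 (higher, by 0.34 and 0.27). At A1341 the AglA library gave 1.09% and the CHX library 0.745%, where DMSO gave 1.06% and no addition 0.955%. The difference of DMSO from no addition had the same sign at A1421 (-0.05), A1329 (-0.22), A1341 (0.20) and C1490 (0.26), and the drugs and their solvents cannot be told apart in this comparison. Both libraries without drug are shared by the AglA and the CHX comparisons.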

How the data were processed

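Values came from 1 deposited table of mutation rates holding 8 library columns, matched by title. The deposited values are a fraction per nucleotide, printed as percent. Per the labels' protocols, rRNA fragments were copied with TGIRT-III and full-length cDNA was kept. Tools listed in the submitters' processing notes are cutadapt and Bowtie2, with build sacCer3. Their versions, the read filters and depth: not given in the sources used here. No step recorded there removes PCR copies.

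Reactive nucleotides were A and C with a mean of at least 0.5% over the 7 DMS libraries (514 in the table). Differences used log2(rate + 0.001), centred on each library's median over them, and the constant added understates changes at low rates. Calls used a 2-fold rule, with no model across doses, since doses are not replicates.

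The members, lists and tests were chosen with earlier results of these data known. Modified bases were listed from memory, and each matched the table's base. Nucleotides named are those listed, the 15 highest in mean rate, the 5 largest differences in each direction per comparison, and G or U of at least 1%, and others were chosen after their values were seen. Gene coordinates come from RefSeq R64, with the strand from the locus tag. Python 3.11.15, numpy 2.4.6, pandas 2.3.3 and matplotlib 3.10.9 were used. Alternatives were other constants, filters, folds and controls, no centring, and subtraction of the rate without DMS.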

Additional observations from a re-analysis of the deposited data

Results flagged for a closer look

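G1265 and G1521 are guanosines, outside the A and C measurement, with signal above the library without DMS. G1265 had 0.647% with DMS and no addition and 0.0686% without DMS, and 0.458% to 0.593% in the other 6 DMS libraries. G1521 had 0.874% and 0.0676%, and 0.766% to 0.897% in the other 6. A1329 was noted because both AglA libraries lay below and all 3 CHX libraries above both libraries without drug after centring, with a mean difference of AglA from CHX of -0.40 on the log2 scale. The difference was not tested, and across all 4 rRNAs 4.86% of reactive nucleotides had the drugs on opposite sides in this way. The CHX rates of A1329 before centring, 0.849% to 0.878%, lay between those of DMSO (0.772%) and no addition (0.960%).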

How the results depend on the processing

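The count of head bases past the fold was 0 for all 7 comparisons under each alternative run: constants of 0.0001 and 0.01, a 2% filter, no filter, no centring, the rate without DMS subtracted, a 1.5-fold rule, and, for the 5 drug libraries, each control alone. The number of reactive bases was 10 with a 2% filter and 78 with 0.2%. The median log2 signal of DMS was 2.15 for A and 0.47 for C with 0.0001 added, and 0.22 and 0.038 with 0.01 added. Counts of bases without overlap, higher and lower, were 2 and 4 (AglA against no drug), 1 and 4 (AglA against CHX) and 1 and 4 (DMSO with AglA against the rest) with the 2% filter, which left 10 bases, and 3 higher for CHX. Shares over the table with the 2% filter were not tabulated, so those counts have no background to be read against. Without centring the counts were 0 and 16 for AglA, 0 and 26 for CHX, and 19 and 2 for AglA against CHX. For DMSO with AglA 2 bases were lower. The SD of the log2 ratios ran from 0.096 to 0.18 over the 7 comparisons as reported, from 0.063 to 0.11 with 0.01 added, from 0.056 to 0.16 with the 2% filter and from 0.11 to 0.17 with no filter. Of 40 single differences, 5 changed sign without centring, 4 with no filter and 1 with 0.01 added. All alternatives for overlap were added after the data were seen. No paired analysis was possible because each condition is 1 library. Depth is unknown, so how precise the low rates are is not known.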

Other observations

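Around the hypermodified U1191 some neighbours had rates without DMS away from the median of their base. A1189 had 0.353% without DMS and 0.254% to 0.384% with DMS, so DMS did not raise it in most libraries. Also on the 5′ side, C1190 had 0.122% without DMS. G1188 there had 0.0320%, below the median of 0.0505% for guanosines of the head. On the 3′ side C1192, A1193 and A1194 had 0.0120%, 0.0199% and 0.0143% without DMS, below the median of 0.0365% for adenosines and 0.0560% for cytidines of the head. These bases were chosen after their values were seen. With no addition A1193 had 0.137% and A1194 0.0690%, also below the median of 0.208% for adenosines.

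Reactivity by the next base on the 3′ side was tabulated for the 112 adenosines. Of the 34 followed by G, 11 were reactive (32.4%), and of the 27 followed by A, 4 (14.8%). Those followed by C had 4 of 27 (14.8%) and by U 6 of 24 (25%). Outside the head the shares were 24.9% of 358 (G), 28.9% of 422 (A), 26.2% of 229 (C) and 25.7% of 331 (U). By the base on the 5′ side, shares in the head ran from 17.4% (U) to 27% (G). Outside the head those ran from 24.2% (U) to 29.3% (C). The differences were not tested, since nucleotides are not replicates.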
